A study of Mus musculus with 2 samples.

Results

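Lysosomal hydrolases, lysosomal membrane proteins and the proton pump that acidifies the lysosome were described in peritoneal macrophages, phagocytes of the abdominal cavity, with and without a drug that activates the liver X receptors (LXRs). The genes were chosen by name, from a list of 50 symbols looked up in the first column of the deposited table, and all 50 had a row among its 50608 rows. One library came from cells given GW3965, a synthetic LXR agonist, and one from cells given the solvent DMSO. Both were labelled as C57BL6J, pooled male and female, at a stage recorded as E15.5, and the dose, the length of treatment and the number of animals in the pools were not given in the sources used here. A single library per group allows neither a replicate check nor a test of the treatment, so every ratio below compares these 2 libraries. The column read as GW3965 shares only its opening letters with that sample's description, and each statement on GW3965 rests on that match.

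The lysosome is the acidic compartment in which a cell breaks down what it has engulfed and what it has sent to autophagy. Cathepsins cut proteins, glycosidases and sulfatases take sugar chains and glycolipids apart, and saposins hand lipids to the enzymes. The vacuolar proton ATPase keeps the lumen acid, with a V1 sector that hydrolyses ATP and a V0 sector in the membrane that carries the protons. The transcription factors TFEB and TFE3 bind CACGTG boxes in the promoters of many of these genes, within a longer element known as the CLEAR motif. LXRs are nuclear receptors that sense oxidised cholesterol, and much of the cholesterol that reaches a macrophage from engulfed particles first passes through the lysosome.

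The CACGTG box is shared by a part of the genes, which membership in the list did not use. RefSeq promoter windows on GRCm38.p6, which run from 250 bases before a gene's start to 50 after it, were found for 43 of the 50 genes by symbol. Ctsb, Ctse, Ctsh, Galns, Atp6v0d2, Atp6v1b2 and Atp6v1h had none in the table. CACGTG, which reads the same on both strands, was in a window of 14 of the 43 genes (32.6%), against 2187 of all 27025 genes of the table (8.09%). TCACGTG on either strand, which contains the shorter box, was in a window of 12 of the 43 (27.9%), against 4.29% of all genes. The 27025 genes were taken without regard to gene type, level or GC content, so they may differ from the 43 in these too. The 250 bases before the start are shown for 1 gene of each main kind, with each CACGTG in capitals and the RefSeq start just after the last base. GENCODE M21 starts the Ctsd, Gla and Atp6v1a genes further upstream, inside or beyond these stretches.
Lamp1, chr8:13158911-13159160, plus strand: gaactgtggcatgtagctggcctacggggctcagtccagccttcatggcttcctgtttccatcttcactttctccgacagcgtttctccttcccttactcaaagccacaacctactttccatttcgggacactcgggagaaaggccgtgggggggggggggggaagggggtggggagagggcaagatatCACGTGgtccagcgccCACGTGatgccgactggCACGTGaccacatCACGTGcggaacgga
Ctsd, chr7:142387828-142388077, minus strand: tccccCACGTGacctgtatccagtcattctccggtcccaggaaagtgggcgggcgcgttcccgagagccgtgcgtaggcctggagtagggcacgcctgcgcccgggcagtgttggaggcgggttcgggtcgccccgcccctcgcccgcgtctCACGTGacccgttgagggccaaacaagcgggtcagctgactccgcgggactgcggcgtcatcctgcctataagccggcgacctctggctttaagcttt
Gla, chrX:134601006-134601255, minus strand: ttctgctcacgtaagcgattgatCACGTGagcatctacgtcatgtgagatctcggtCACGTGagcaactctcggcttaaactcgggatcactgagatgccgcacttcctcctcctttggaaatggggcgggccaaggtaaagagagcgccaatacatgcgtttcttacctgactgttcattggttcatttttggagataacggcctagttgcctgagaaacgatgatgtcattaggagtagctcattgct
Atp6v1a, chr16:44139260-44139509, minus strand: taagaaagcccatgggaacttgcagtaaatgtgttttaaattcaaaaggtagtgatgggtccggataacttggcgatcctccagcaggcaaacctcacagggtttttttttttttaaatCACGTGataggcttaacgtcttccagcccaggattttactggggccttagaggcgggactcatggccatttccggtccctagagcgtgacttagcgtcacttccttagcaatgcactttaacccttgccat

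Lamp1 held 4 copies, the first letters of which lie 61, 45, 28 and 15 bases before the start. In Ctsd the boxes begin 245 and 98 bases before the start, in Gla 227 and 194, and in Atp6v1a 131. By role, the box was in 4 of the 9 cathepsin genes with a window, 4 of the 12 glycosidase genes and 2 of the 5 proton pump genes. Lamp1 and the calcium channel gene Mcoln1 held it among the 7 membrane protein genes. LXR and its partner RXR bind direct repeats of AGGTCA-like copies with 4 bases between them. The exact form, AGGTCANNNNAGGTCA on either strand, was in no window of the 43 genes and in 4 of the 27025 genes (0.0148%). An exact match so rare among all genes cannot tell these 43 genes from others, and looser forms were not searched. These matches are descriptions of letters in a window.

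Levels are given as FPKM, which divide fragments by gene length and by library depth, as deposited. The depth recovered from the steps of the values was 75287166 reads for GW3965 and 101866116 for DMSO. Genes with a mean of 1 FPKM or more over both libraries were called measured, a limit that 11889 rows and 49 of the 50 genes reached. For each, the log2 of (GW3965 + 1) over (DMSO + 1) was taken, and 1.5-fold on that scale, 0.58 in log2 units, was the limit for higher or lower. The median log2 ratio of all measured rows was 0.24, a fold of 1.18, and a log2 ratio from which it was subtracted is called centred. The libraries also differed in makeup, since 3 rows of the NONCODE noncoding RNA catalogue held 65.9% of the FPKM sum in GW3965 and 79.7% in DMSO. The LXR targets checked were far above it. Abca1, which exports cholesterol, had 261 FPKM in GW3965 and 19.9 in DMSO, and all 8 targets checked were higher by 1.5-fold, against 3.46% of all measured rows.

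The tissue label was checked with 10 macrophage marker genes, of which 8 were measured. The lysozyme gene Lyz2 had 4822 FPKM in GW3965 and 4052 in DMSO, and Mpeg1 had 841 and 635. Marco and Icam2 were below 1 FPKM in both. Summed levels of markers of T and NK cells (5 genes) were 0.483 FPKM in GW3965 and 0.267 in DMSO, and of mast cells (5 genes) 1.44 and 0.590. Neutrophil markers (6 genes) summed to 4.29 FPKM in GW3965 and 3.64 in DMSO, nearly all from S100a8 with 3.60 and 3.29, while Elane, Mpo and S100a9 were below 0.2 in both libraries. Mesothelial and fibroblast markers (6 genes) summed to 23.7 and 15.6 FPKM. Among the B cell markers Ms4a1 and Pax5 were below 1 FPKM in both libraries. Cd79a had 1.60 FPKM in GW3965 and 1.03 in DMSO, Cd79b 1.28 and 0.925, and Ighm 64.4 and 9.26. The 6 dendritic cell markers summed to 108 and 116 FPKM, nearly all from Itgax, which macrophages also express. The part of these cells in the lysosomal levels was not tested, and in bulk RNA fewer cells of a type and less RNA per cell cannot be told apart.

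No measured lysosomal gene passed the 1.5-fold limit that all 8 LXR targets passed. Of the 49 measured genes, 0 were higher and 0 were lower by 1.5-fold, where 3.46% of all measured rows were higher and 0.0757% lower. After centring the counts were again 0 and 0, against 1.38% and 0.336% of rows. The median log2 ratio of the 49 genes was 0.23, or -0.02 centred, beside 0.24 for all measured rows. They ran from -0.18 for Grn to 0.49 for Atp6ap2, or from -0.42 to 0.25 centred. At a smaller limit of 0.32 on the log2 scale, 12 genes were higher and 0 lower as deposited, beside 29.6% and 0.395% of rows, and 0 were higher and 3 lower after centring, beside 3.73% and 2.99%. The 3 were Grn, Gaa and Arsb, which were also the genes outside the central 90% of all measured rows (-0.27 to 0.28 centred). The sign of most genes depended on the scaling. As deposited 45 of 49 were above 0 (93.6% of all measured rows were), and after centring 23 of 49. Scaled to the same sum of FPKM 49 were above 0, and to the same sum without NONCODE rows 6 were.

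**Figure D1:**
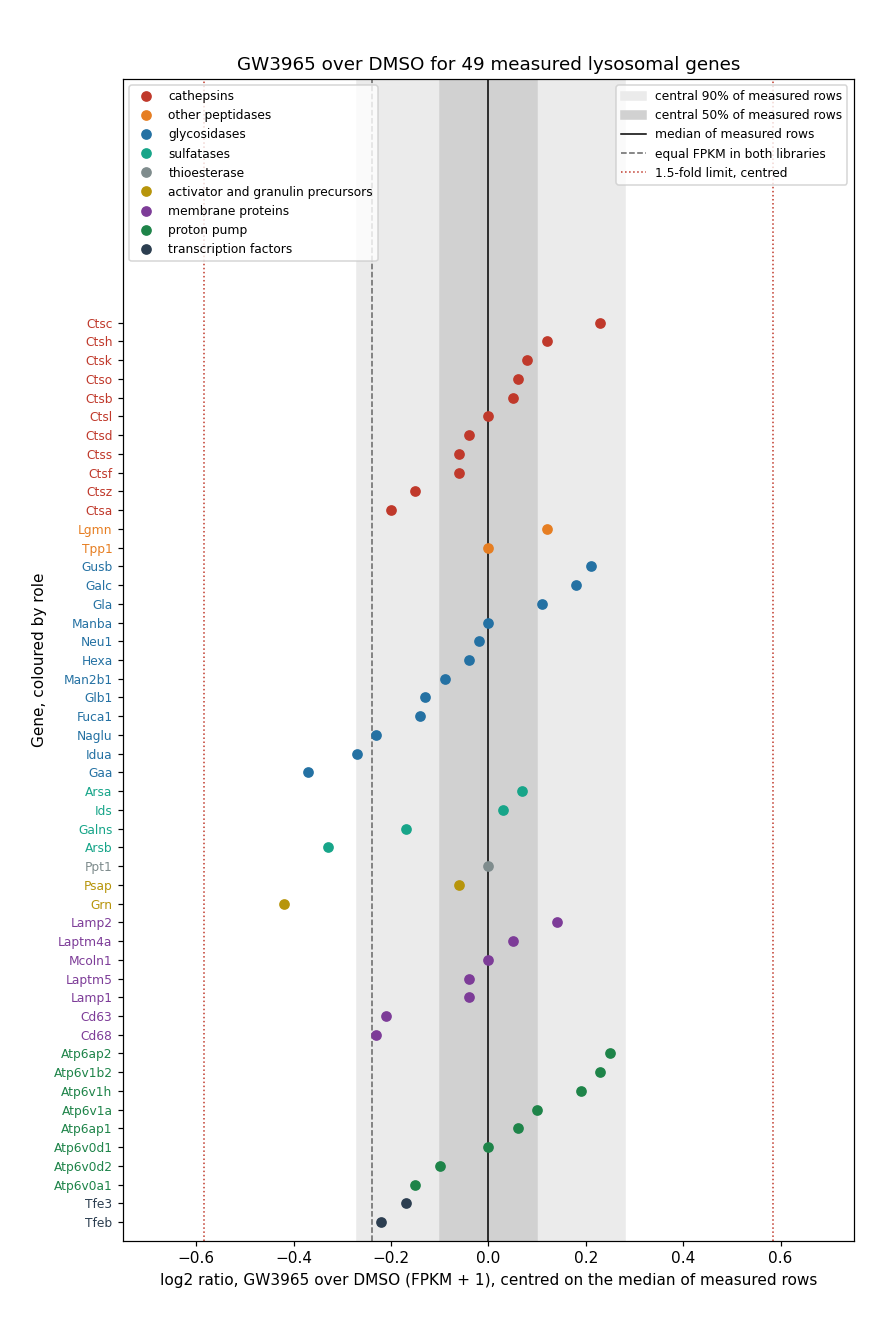
Centred log2 ratio, GW3965 over DMSO on the FPKM + 1 scale, of the 49 measured lysosomal genes (1 point per gene, 1 library per group), with the central 90% and 50% of all 11889 measured rows as grey bands. All points lie between -0.42 (Grn) and 0.25 (Atp6ap2), inside the dotted 1.5-fold limits, and 3 of them, Grn, Gaa and Arsb, lie left of the wider band.

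Levels were high and spread over more than 3 orders of magnitude. In GW3965 23 of the 50 genes stood at 100 FPKM or more, and in DMSO 20. Psap, the precursor of the saposins, led in both libraries, with 4961 FPKM in GW3965 and 4374 in DMSO, the 5th highest of the 9351 measured rows with a gene symbol in each. Psap, Ctsd, Ctsb and Ctss, the 4 genes above 1000 FPKM, made up 71.1% of the summed FPKM of the 50 genes in GW3965 and 71.1% in DMSO. The 50 genes together held 8.04% of the FPKM of all rows with a symbol in GW3965 and 9.35% in DMSO.

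**Figure D2:**
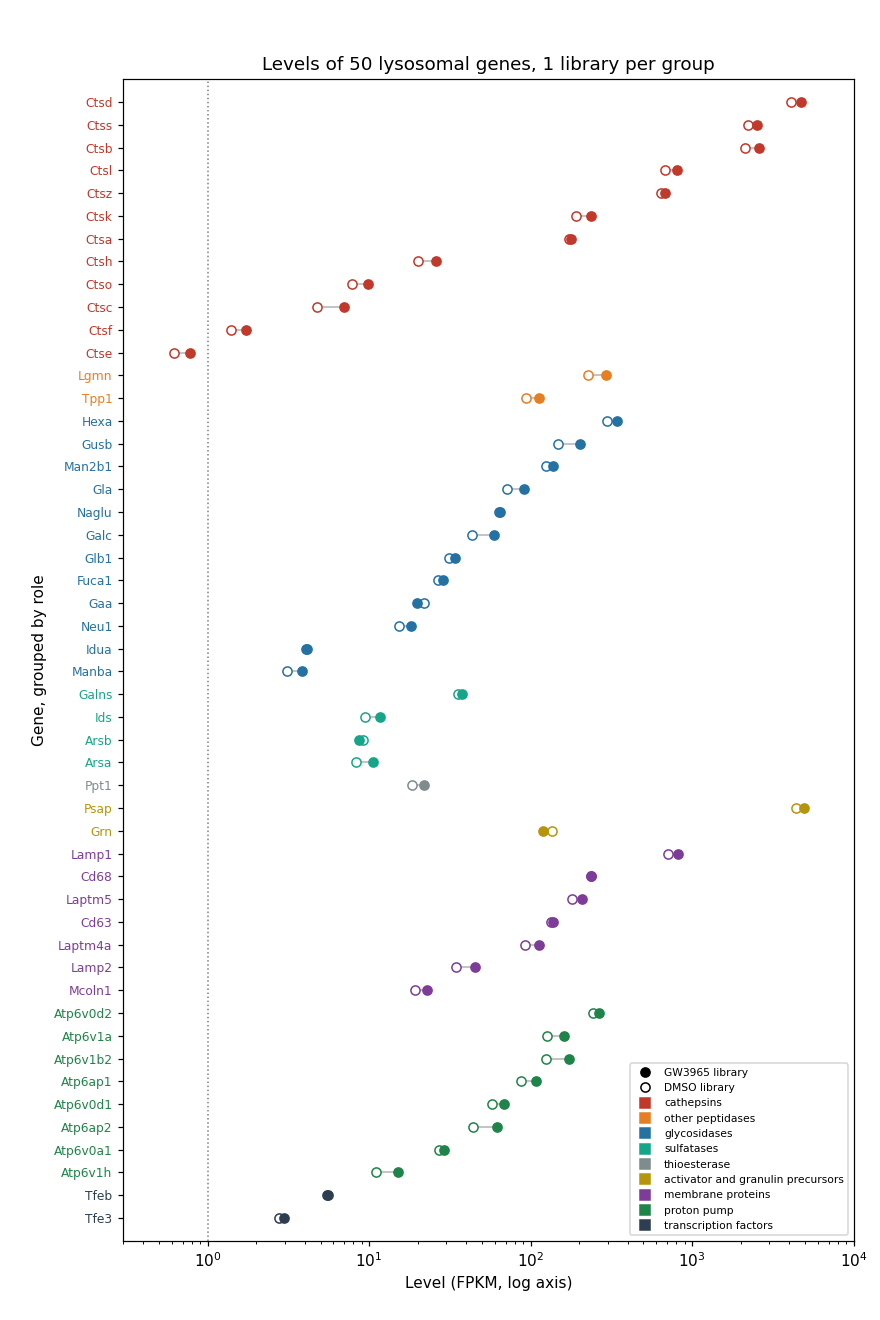
FPKM (log axis) of each of the 50 genes in the GW3965 library (filled) and the DMSO library (open), grouped by role, with the measuring limit of 1 FPKM dotted. Psap and Ctsd stand at the top in both libraries, at 4961 and 4736 FPKM in GW3965, and Ctse alone lies below 1 FPKM, with 0.775 in GW3965 and 0.623 in DMSO.

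The cathepsins spanned nearly the whole range of levels, from Ctsd, next after Psap in both libraries, to Ctse, the scarcest. Ctsd, the aspartic protease that starts protein breakdown in the lysosome (chr7:142375911-142388038, GRCm38), had 4736 FPKM in GW3965 and 4115 in DMSO, a ratio of 1.15. Ctsb, a cysteine protease, had 2612 FPKM in GW3965 and 2138 in DMSO. Ctss, which trims the invariant chain of MHC class II, had 2539 and 2230. Ctsb thus stood above Ctss in GW3965 and below it in DMSO, with a quotient of 1.03 in GW3965 and 0.958 in DMSO. Below them came Ctsl, with 801 FPKM in GW3965 and 675 in DMSO, and Ctsz, a carboxypeptidase, with 683 and 640.2. Ctsk, best known as the collagen-cutting protease of osteoclasts, had 238 FPKM in GW3965 and 190.0 in DMSO, the 87th and 89th highest of rows with a symbol.

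The other cathepsins were lower in level. Ctsa, a serine carboxypeptidase that also protects neuraminidase and beta-galactosidase, had 178 FPKM in GW3965 and 172 in DMSO. Ctsh, an aminopeptidase, had 26.1 and 20.0 FPKM, and Ctso had 9.91 and 7.84. Ctsf stood near the limit, at 1.72 and 1.40 FPKM. Ctse, an aspartic cathepsin of the endosomes of immune and gastric cells, was the 1 gene of the 50 below it, at 0.775 FPKM in GW3965 and 0.623 in DMSO, an estimated 179 and 195 reads.

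Among the 11 measured cathepsins the highest ratio was that of Ctsc and the lowest that of Ctsa. Ctsc, the dipeptidyl peptidase that activates serine proteases of granules, had 7.03 FPKM in GW3965 and 4.77 in DMSO, 1.47 times as much (95% counting interval 1.40 to 1.55), or 0.23 centred. The centred value of Ctsh was 0.12, and those of the abundant Ctsb, Ctsl, Ctsd and Ctss were 0.05, 0.00, -0.04 and -0.06. Ctsz and Ctsa had centred values of -0.15 and -0.20. Ctsb, Ctsl, Ctsd and Ctss thus lay within 0.06 of the median of all rows. In GENCODE M21 (GRCm38), which gives the positions quoted here, 15 of the 50 genes share exon bases with another gene. It places 495 bases (10.5%) of the Ctsa exons opposite exons of Pltp, an LXR target with 57.9 FPKM in GW3965 and 15.4 in DMSO, and the strand setting of the counting was not given in the sources used here. It also places 34.4% of the Ctsd exon bases in Gm49369, on the same strand. Of the Ctsl exon bases it places 26.8% opposite Gm47123 and 6.09% in Gm49230, on the same strand. For Ctsb it places 12.8% opposite Fdft1. How reads shared by 2 genes were counted was not given either, so the Ctsd, Ctsl and Ctsb values are uncertain where both genes were annotated.

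Both other peptidases were abundant, and Lgmn had the higher ratio. Lgmn, the asparaginyl endopeptidase that processes cathepsins to their mature forms, had 294 FPKM in GW3965 and 228 in DMSO, a centred log2 ratio of 0.12. Tpp1, a tripeptidyl peptidase, had 112 and 94.1 FPKM and a centred value of 0.00.

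The glycosidases were lower in level than the leading cathepsins and spread more widely in ratio. Hexa, the alpha subunit of hexosaminidase, had 344 FPKM in GW3965 and 298 in DMSO. Gusb, beta-glucuronidase, had 203 and 147, and Man2b1, an alpha-mannosidase, 137 and 124. These were the 3 most abundant, and all 12 were measured, down to Manba, a beta-mannosidase with 3.86 FPKM in GW3965 and 3.10 in DMSO.

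Gusb and Galc had the highest ratios of the glycosidases. For Gusb (chr5:129989011-130003049) the ratio was 1.38 (1.36 to 1.39), or 0.21 centred. Galc, which removes galactose from galactosylceramide, had 59.0 FPKM in GW3965 and 43.6 in DMSO, 1.35 times as much (1.34 to 1.37), or 0.18 centred. Gla, the alpha-galactosidase that is deficient in Fabry disease, had 91.2 and 71.2 FPKM, a centred value of 0.11.

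Gaa and Idua stood at the other end. Gaa, which degrades glycogen in the lysosome (chr11:119267887-119285454), had 19.8 FPKM in GW3965 and 21.8 in DMSO, 0.910 times as much (0.882 to 0.938), or -0.37 centred. Idua, the iduronidase of heparan and dermatan sulfate breakdown, had 4.07 and 4.15 FPKM, a ratio of 0.982 (0.912 to 1.06) whose counting interval spans 1. Naglu, which acts on heparan sulfate, had 64.3 and 63.9 FPKM and a centred value of -0.23. The remaining glycosidases, Neu1, Manba, Hexa, Man2b1, Glb1 and Fuca1, lay between -0.14 and 0.00 centred.

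Of the 4 sulfatases, Galns was the most abundant, with 37.6 FPKM in GW3965 and 35.6 in DMSO and a centred log2 ratio of -0.17. Ids, which takes sulfate from iduronate, had 11.6 and 9.37 FPKM, and Arsa, which acts on sulfatide, 10.6 and 8.35. Arsb, which acts on dermatan sulfate (chr13:93771630-93943016), had 8.64 FPKM in GW3965 and 9.20 in DMSO, 0.939 times as much (0.901 to 0.979), or -0.33 centred. Exons of the noncoding gene Gm26527 lie opposite 32.3% of the Arsb exon bases, so the Arsb value is uncertain where strand was not used. Ppt1, the thioesterase that removes palmitate from proteins, had 21.9 and 18.3 FPKM, a centred value of 0.00.

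The 2 precursor proteins differed from each other. Psap had a centred log2 ratio of -0.06. Grn, the precursor of the granulins, which are found in lysosomes (chr11:102430315-102437048), had 119 FPKM in GW3965 and 135 in DMSO, a ratio of 0.882 (0.869 to 0.894). Its centred value of -0.42 was the lowest of the 49 genes.

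The 7 membrane proteins had a median centred log2 ratio of -0.04 and ran from -0.23 to 0.14. Lamp1, the main glycoprotein of the lysosomal membrane, had 817 FPKM in GW3965 and 712 in DMSO, a centred value of -0.04. Its relative Lamp2, which also serves in chaperone-mediated autophagy, had 45.1 and 34.4 FPKM and the highest centred value of the class, 0.14. Lamp1 over Lamp2 was 18.1 in GW3965 and 20.7 in DMSO. Cd68, the macrophage marker related to both, had 238 and 235 FPKM, and the tetraspanin Cd63 had 138 and 134. Their centred values, -0.23 and -0.21, were the lowest of the class. Laptm5, of blood cells, had 209 FPKM in GW3965 and 181 in DMSO, and Laptm4a had 112 and 91.8. Mcoln1, the calcium channel of the lysosomal membrane, had 22.9 and 19.2 FPKM, a centred value of 0.00.

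The proton pump subunits had the highest median of the 3 main classes. Atp6v1a, the catalytic A subunit, had 161 FPKM in GW3965 and 127 in DMSO, a ratio of 1.27. Atp6v1b2, the B subunit that pairs with it (chr8:69088646-69113711), had 174 FPKM in GW3965 and 125 in DMSO, 1.39 times as much (1.37 to 1.40). Atp6v1h, the H subunit that couples the sectors, had 15.2 and 11.02 FPKM, 1.38 times as much (1.34 to 1.42). The centred log2 ratios of the 3 V1 genes were 0.10, 0.23 and 0.19, all above 0.

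The 3 V0 genes of the list were at or below the median of all rows, which did not hold for all V0 genes of the table, described with the further subunits. Atp6v0d2, the d subunit isoform known from osteoclasts and macrophages, had 267 FPKM in GW3965 and 242 in DMSO, a centred value of -0.10. Its widely expressed counterpart Atp6v0d1 had 68.5 and 57.5 FPKM, a centred value of 0.00. The d2 isoform was thus the more abundant in both libraries, at 3.90 times Atp6v0d1 in GW3965 and 4.20 times in DMSO. Atp6v0a1, an a subunit of the proton path, had 29.0 and 27.2 FPKM and the lowest centred value of the pump, -0.15.

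The 2 accessory subunits were above the median. Atp6ap2, also known as the prorenin receptor (chrX:12587801-12617049), had 62.2 FPKM in GW3965 and 43.9 in DMSO, a ratio of 1.42 (1.38 to 1.45). Its centred value of 0.25 was the highest of the 49 genes on the FPKM + 1 scale. The plain FPKM ratio of Ctsc, 1.47, was higher. With a pseudocount of 0.1 Ctsc led too, with a log2 ratio as deposited of 0.55 against 0.50 for Atp6ap2. Atp6ap1 had 108 and 87.0 FPKM and a centred value of 0.06. Summed FPKM were 349 in GW3965 and 263 in DMSO for the 3 V1 genes, a ratio of 1.33, and 365 and 326 for the 3 V0 genes, a ratio of 1.12.

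The 2 transcription factors were low in level and did not differ by more than 1.07-fold. Tfeb had 5.60 FPKM in GW3965 and 5.48 in DMSO, a ratio of 1.02 (0.969 to 1.08). Tfe3 had 2.96 and 2.77 FPKM, 1.07 times as much (1.01 to 1.13). Centred, Tfeb stood at -0.22 and Tfe3 at -0.17 in log2.

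Side by side, the median centred log2 ratio was 0.00 for the 11 measured cathepsins, -0.07 for the 12 glycosidases and 0.08 for the 8 proton pump genes. As deposited the medians were 0.25, 0.18 and 0.32. The ranges overlapped, from -0.20 to 0.23 for cathepsins, from -0.37 to 0.21 for glycosidases and from -0.15 to 0.25 for the pump. The order of the 3 medians was the same under each of the other 5 scalings. Each scaling shifts all genes by nearly the same amount, so it could hardly change that order. Without the genes that overlap another gene's exons the order did change, with a cathepsin median of 0.31 and a pump median of 0.30. Summed FPKM gave a ratio of 1.16 for cathepsins, 1.18 for glycosidases and 1.23 for the pump, so the glycosidases were not lowest on that measure. No test of these differences is possible with 1 library per group.

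The GC content of the transcripts moved with the ratios. Across the 49 measured genes the log2 ratio and the GC content of the longest GENCODE transcript had a Pearson r of -0.63 and a Spearman rho of -0.64. Across all 8689 measured protein-coding rows r was -0.40 and rho -0.54. All these points come from the same 2 libraries, and genes are not independent replicates. Within the classes r was -0.70 for the 11 cathepsins, -0.75 for the 12 glycosidases and -0.23 for the 8 pump genes.

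The classes ranked by GC content in the reverse of their order by ratio, with a median GC content of 45.8% for the pump, 49.2% for the cathepsins and 53.3% for the glycosidases. Grn (56.1%), Gaa (59.5%), Tfeb (63.2%) and Naglu (59.8%) are rich in GC, while Atp6ap2 (40.5%), Ctsc (41.1%), Galc (38.3%) and Atp6v1h (37.6%) are poor in it. These were picked as examples, and other genes did not follow the order. Arsb (50.8%) and Cd68 (52.9%) had centred values of -0.33 and -0.23, and Atp6v1b2 (50.4%) and Gusb (52.2%) had 0.23 and 0.21. Atp6v0d2 (41.6%), poor in GC, had -0.10. Protein-coding rows were split into 4 bins of about equal size by GC content. In the bin poorest in GC the centred median was 0.12 for 10 of the lysosomal genes and 0.09 for all 2172 rows. In the richest it was -0.16 for 16 of the lysosomal genes and -0.12 for all 2173 rows. Grn and Arsb were below, and Gusb and Atp6v1b2 above, the central 90% of protein-coding rows in their own bin, while Gaa and Atp6ap2 were inside it. That put 4 of the 49 genes outside, no larger a share than the rows that such a band leaves out by construction. The part of GC content in the class differences was not tested. Transcript length had r = 0.08 and the log2 level r = 0.06 with the log2 ratio of the 49 genes.

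**Figure D3:**
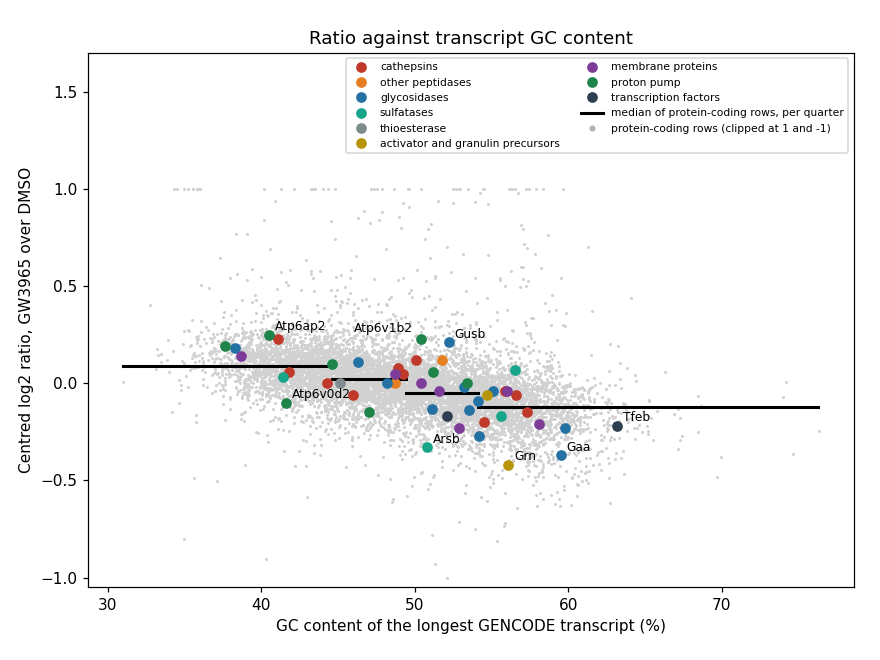
Centred log2 ratio, GW3965 over DMSO, against the GC content of the longest GENCODE transcript for the 49 measured lysosomal genes (coloured by role) and 8689 protein-coding rows (grey), with black lines at the median of the rows in each of 4 GC bins. The lines step down from 0.09 to -0.12 with rising GC content, and most lysosomal genes lie near them, with Grn and Arsb below and Gusb and Atp6v1b2 above.

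The ratios of genes with and without the promoter box overlapped. The 14 genes with CACGTG in a window had a median centred log2 ratio of -0.02, from -0.37 (Gaa) to 0.12 (Lgmn), and the 29 without had -0.04, from -0.42 (Grn) to 0.25 (Atp6ap2). Their median levels were 79.8 FPKM in GW3965 and 67.5 in DMSO with the box, and 62.2 and 43.9 without.

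Other lysosome genes were described from 7 lists, with 97 genes in all and 82 measured. None was higher or lower by 1.5-fold, as deposited or centred. Of all measured rows 3.46% were higher and 0.0757% lower as deposited, and 1.38% and 0.336% centred. The median centred log2 ratio of the 82 genes was 0.02, from -0.57 to 0.31. Of the 10 measured further pump subunits, Atp6v1g1 (208 FPKM in GW3965 and 154 in DMSO) and Atp6v1f (92.6 and 69.6) had the highest centred values, 0.19 and 0.16. Atp6v0c, the proteolipid of the V0 ring, had the lowest at -0.27, with 87.4 and 88.7 FPKM, and Atp6v1d followed at -0.02. The other V0 genes measured were above the median, with centred values of 0.09 for Atp6v0e, 0.06 for Atp6v0a2 and 0.01 for Tcirg1 and Atp6v0b. The V1 genes Atp6v1c1 and Atp6v1e1 had 0.03 and 0.01, so V1 and V0 genes overlapped in ratio. In a list of further peptidases, nucleases and the phospholipase gene Pla2g15, 8 genes were measured. Their values ran from -0.26 for Napsa, after which came Pla2g15 at -0.10, to 0.04 for Scpep1 and 0.12 for Dnase2a.

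The 21 further hydrolases of glycans and lipids spread most. Acp5, the tartrate-resistant acid phosphatase, had 18.5 FPKM in GW3965 and 23.4 in DMSO, a centred value of -0.57, and Naaa had -0.36. Acp2 and Asah1, acid ceramidase, were highest, at 0.22 and 0.17. Lipa, the lysosomal acid lipase that frees cholesterol from its esters, had 569 and 435 FPKM, a centred value of 0.15, and was picked after its value was seen. The 20 measured membrane proteins had a median of 0.08 and ran from -0.21 for Tpcn1 to 0.31 for Glmp (3.48 FPKM in GW3965 and 2.05 in DMSO), with Scarb2 at 0.29 (74.5 and 51.3 FPKM).

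Sorting genes, which carry new enzymes to the lysosome, had a median of -0.09 over 10 genes. They ran from -0.35 for Sort1 and -0.26 for Gga1 to 0.05 for M6pr and 0.08 for Gnptg. Of the cathepsin inhibitors Cst3 (294 and 249 FPKM) and Cstb (449.7 and 367 FPKM) were measured, at 0.00 and 0.05. The 11 genes of the MiT family and of the Ragulator complex and its partners, which place mTORC1 on the lysosome, ran from -0.14 for Lamtor2 and -0.09 for Flcn to 0.18 for Fnip1 and 0.19 for Lamtor5. Within the MiT family, Mitf had 12.5 FPKM in GW3965 and 9.93 in DMSO and Tfec 2.54 and 1.72, so Mitf stood above Tfeb and Tfe3 in both libraries. These 2 genes were picked after their values were seen.

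**Figure D4:**
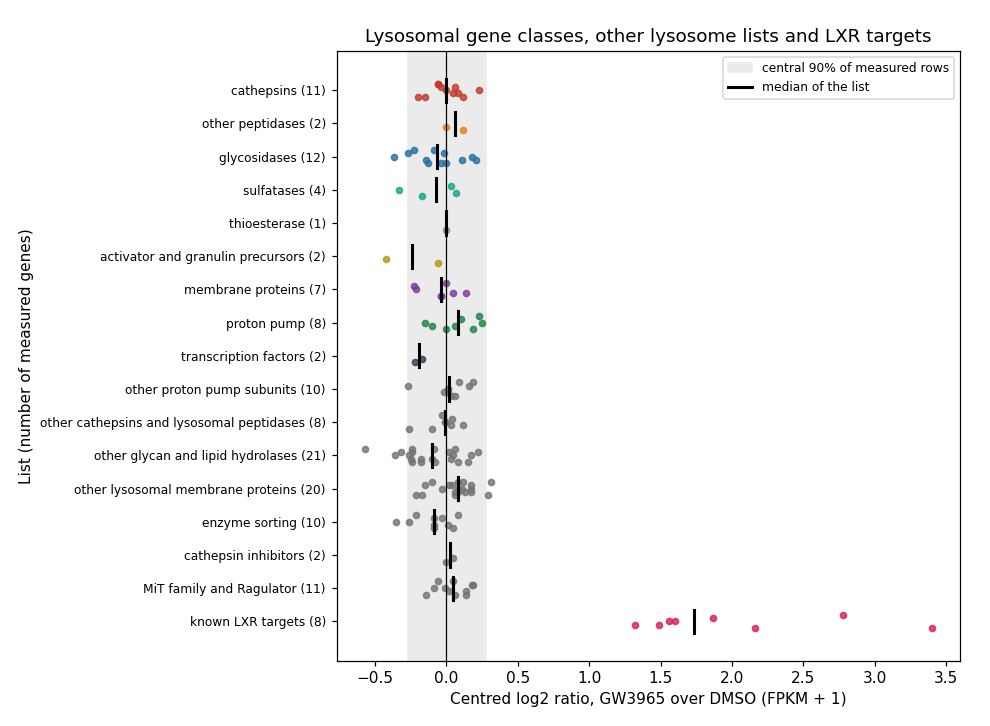
Centred log2 ratio, GW3965 over DMSO, of each measured gene in the lysosomal classes (coloured), in 7 lists of other lysosome genes (grey) and among 8 known LXR targets (pink), with the median of each list as a black bar and the central 90% of measured rows in grey. The lysosomal lists scatter about 0, between -0.57 and 0.31, while the LXR targets lie between 1.32 and 3.40.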

How the data were processed

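RNA of 2 peritoneal macrophage samples, 1 given GW3965 and 1 given DMSO, was isolated with a Qiagen kit and made into Illumina TruSeq libraries, per the labels' protocols. The authors deposited 1 table of FPKM values with 1 column per library. STAR 2.3.0, HTSeq 0.5.4p3 and the builds GRCm38 and mm10 are named in the submitters' processing notes, with no role or order. Annotation, strand setting, treatment of multiply mapped reads and filters were not given in the sources used here.

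Ratios were log2 of (FPKM + 1), GW3965 over DMSO, for rows with a mean of at least 1 FPKM, as deposited and centred on their median. A fold limit of 1.5 was used, and no test, with 1 library per group. Depth was recovered from FPKM steps. Of 23298 low rows, 65.3% had a ratio of small whole numbers once a factor of 1.353 between the libraries was allowed, and 219 of 9883 rows pointed to 1 depth with GENCODE M21 exon lengths reduced by 99 bases, against 63 at the next best reduction. Reads per gene are estimates from those lengths. Ratios carry exact conditional (Clopper-Pearson) 95% intervals on them, which cover counting error only. The depth and interval steps were tested on data simulated with the same exon lengths. Such data cannot show whether these lengths match the annotation behind the deposited values. Exon overlaps, positions and GC content came from GENCODE M21 and promoters from RefSeq (GRCm38.p6). Calculations used scipy 1.17.1, pandas 2.3.3 and numpy 2.4.6 under Python 3.11.15, and figures matplotlib 3.10.9.

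Members and lists were chosen with earlier results of these data known. The genes named by rule were the 8 pump members, both transcription factors, members past a limit or below 1 FPKM, the most abundant members and extreme ratios of each class, and the extreme ratios of each other list. Other genes were named after their values were seen. Alternatives changed the pseudocount, the filter, the scaling and the fold limit. Centring on protein-coding rows, leaving out genes with exon overlap, the promoter split, the AGGTCA repeat, the pump sectors and the GC comparison were chosen after seeing the data. Some genes of the lists are counted but not reported here by name.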

Additional observations from a re-analysis of the deposited data

How the results depend on the processing

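No paired analysis was possible because there is 1 library in each group. Of the lysosomal genes 0 were higher and 0 lower by 1.5-fold with pseudocounts of 0.1 and 0.5, no filter, a filter of 5 FPKM, a 2-fold limit, both centrings, the same upper quartile and without the 15 genes with exon overlap. With the same sum of FPKM 12 were higher, and with the same sum without NONCODE rows 1, Grn, was lower. A limit of 0.32 in log2 gave 12 higher, and with centring 3 lower. The median of all 49 genes was 0.23 as deposited, -0.02 centred, 0.47 with the same sum, -0.05 with the same upper quartile, -0.18 with the same sum without NONCODE rows and -0.01 centred on protein-coding rows. In that order the cathepsin median was 0.25, 0.00, 0.51, -0.01, -0.14 and 0.02, the glycosidase median 0.18, -0.07, 0.44, -0.12, -0.25 and -0.05, and the pump median 0.32, 0.08, 0.59, 0.02, -0.10 and 0.09. The cathepsin median was also 0.28 with a pseudocount of 0.1, 0.22 with no filter, 0.27 at 5 FPKM and 0.31 without overlapping genes. Of 437 values of single genes 245 were counted as moved, judged beside their counting interval, and 0 changed sign past 1.5-fold. All 245 came from the 5 other scalings, each of which shifts every gene, so the count does not tell single genes apart. Named rows without Gm, Rik and pseudogene symbols gave 2.15% higher and 0.0452% lower by 1.5-fold. One read of a 1 kb gene was worth 0.0133 FPKM in GW3965 and 0.00982 in DMSO.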

Other observations

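Ctsk and Atp6v0d2 are best known from osteoclasts, and both were among the 100 most abundant rows with a symbol in each library. Other osteoclast markers were not, with Calcr, Oscar and Ocstamp below 0.1 FPKM in both libraries and Dcstamp at 0.925 FPKM in GW3965 and 0.734 in DMSO. Acp5 had 18.5 FPKM in GW3965 and 23.4 in DMSO, and the osteoclast transcription factor Nfatc1 had 2.46 and 2.61, with centred log2 ratios of -0.57 and -0.30. Ctsk and Atp6v0d2 had 0.08 and -0.10. These genes were picked after their values were seen.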
